A study of Mus musculus with 12 samples.

Results

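The genes described here are 36 genes of the amino acid response and of endoplasmic reticulum (ER) stress, chosen by name, and 35 of them were measured among 19938 genes with a probe set of their own on the array. Where a gene had several probe sets, the one with the largest interquartile range over the 12 arrays was used. Of the 35, 19 were ATF4-type genes (the transcription factor ATF4, its partners and its targets in amino acid supply), 14 were ER chaperones and other folding genes, and 2, Xbp1 and Atf6, were regulators of the unfolded protein response. Aars, the alanyl-tRNA synthetase gene, had only a probe set that it shares with Exosc6 and was not analysed here.

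RNA came from N2A, an established line of mouse neuroblastoma cells that grow neurites in RA, and was measured on single-colour Affymetrix Mouse Gene 1.0 ST arrays. There were 4 groups of 3 arrays: Dali KD cells after RA, proliferating Dali KD cells, control cells after RA and proliferating control cells. KD cells stably carried a vector for a short hairpin RNA against Dali, a long non-coding RNA from the Pou3f3 locus, and control cells a non-targeting (scrambled) vector; both kinds had been selected in 200 ug/ml Hygromycin B and grown out from single resistant clones. RA cells had spent 72 h in 20 uM all-trans retinoic acid (RA) with 2% serum, and proliferating cells were in medium with 10% serum, so RA and the lower serum cannot be told apart. The study describes several clonal KD lines and a single control line, but the labels do not say which clone or culture each array came from. The p-values therefore measure only the spread between these samples, and the study describes these as biological replicates. In a single control line a trait of that clone and the absence of knockdown cannot be told apart. No probe set carried the name Dali, so the knockdown itself was not checked on these arrays.

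ATF4 is made when phosphorylation of the translation factor eIF2 slows general protein synthesis, as happens when amino acids run short or unfolded protein builds up in the ER. It switches on genes that make, import and charge amino acids, together with regulators such as CHOP, the product of Ddit3. ER stress also acts through the sensors IRE1 and ATF6: IRE1 splices Xbp1 mRNA, and XBP1 and ATF6 then raise the chaperones and disulphide isomerases that fold proteins entering the ER.

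Array medians lay between 7.146 and 7.209, and the lowest correlation within a group was 0.9924. Of the markers of sympathetic neuroblasts, from which neuroblastoma arises, 10 of 11 were measured and all 10 lay above the middle of all genes by signal, between the 56.2nd and the 99.3rd percentile. The 7 fibroblast markers lay between the 3.1st and the 57.1st percentile, 5 measured glial markers between the 20.8th and the 44.5th, and 7 immune and endothelial markers between the 13.6th and the 42.7th. Of the 10 neuroblast markers, 4 rose in proliferating KD cells relative to control cells (Mycn by 0.49, Th by 0.51, Dbh by 0.62 and Hand2 by 0.38), and after RA Dbh was higher (0.41) and Phox2a lower (-0.42) in KD cells. With RA, Gata2, Th and Dbh fell in both kinds of cell and Mycn fell in KD cells, with an interaction for Mycn of -0.50 (adjusted p = 0.00764 in limma). What part these shifts have in the results was not tested. Of the markers of other cell types, 1 was called, the endothelial gene Pecam1, which lay lower with RA (-0.53 in KD cells and -0.63 in control cells), whose part was not tested either. Changes are given on the log2 scale, and a gene was called, and is said to have risen or fallen, when its adjusted p in limma was under 0.05 and its change at least 1.3-fold (0.38 on the log2 scale). The test ran on the 9969 genes of larger spread, which held 14 of the 35 members, 9 of them ATF4-type and 5 of ER folding. The other 21 members are given from a second fit over all 19938 genes, without a filter. The filtered test held 9 of the 10 neuroblast markers. Of all genes tested, 6.96% were called between KD and control cells while proliferating and 7.71% after RA. With RA 9.94% were called in KD cells and 9.34% in control cells, and 1.24% for the interaction.

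RA shifted a few of these genes strongly and most of them little. Dnajb9, the gene of an ER co-chaperone, and Slc7a11, the gene of the cystine importer, rose in both kinds of cell, Ddit3 fell in both, and Pdia4, a disulphide isomerase gene, rose in KD cells on 1 of its 2 probe sets. Between KD and control cells, none of the 35 was called in either state. Atf4 itself, the chaperone gene Hspa5 and the asparagine synthetase gene Asns were outside the filtered test. In the fit over all genes their changes in the 5 comparisons lay between -0.12 and 0.07, with an adjusted p of 0.103 or more in limma.

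Dnajb9 encodes ERdj4, a J-domain partner of the ER chaperone BiP. In KD cells it stood at 11.17, 11.53 and 11.35 (log2 expression, 1 value per array) after RA and at 10.25, 10.18 and 10.01 in proliferating cells. In control cells it stood at 11.31, 11.35 and 11.22 after RA and at 10.40, 10.33 and 10.26 in proliferating cells. Every RA array lay above every proliferating array, and RA arrays of KD cells reached both lower and higher than those of control cells. Dnajb9 rose 2.3-fold with RA in KD cells (1.20 ± 0.09, log2 and SE; adjusted p = 1.12e-06 in limma) and 1.95-fold in control cells (0.96 ± 0.09; adjusted p = 6.05e-06 in limma). The interaction, that is the RA change in KD cells less the RA change in control cells, was 0.24 ± 0.12 and was not called (adjusted p = 0.346 in limma, with a 95% interval from -0.02 to 0.50). In RNA of whole cultures, fewer cells of a type and less RNA per cell cannot be told apart.

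Slc7a11 encodes the transport subunit of the exchanger that brings in cystine for glutathione synthesis. Its expression was 11.20, 11.22 and 11.19 in KD cells after RA, against 10.78, 10.74 and 10.72 in proliferating KD cells. Control cells held 11.25, 11.30 and 11.17 after RA, against 10.82, 10.76 and 10.74 while proliferating. The 2 states did not overlap in either kind of cell, whereas KD and control arrays of the same state did. Slc7a11 rose by 0.46 ± 0.05 in KD cells (adjusted p = 1.18e-05 in limma) and by 0.47 ± 0.05 in control cells (adjusted p = 8.86e-06 in limma), and the interaction was -0.01 ± 0.06, with a 95% interval from -0.15 to 0.12.

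Ddit3 encodes CHOP, a transcription factor of the stress response that favours cell death when stress lasts. It was the only ATF4-type member that fell by the call rule. After RA it stood at 9.98, 9.84 and 9.90 in KD cells and at 9.76, 9.78 and 9.74 in control cells. In proliferating cells it stood at 10.28, 10.42 and 10.35 in KD cells and at 10.39, 10.42 and 10.41 in control cells. RA arrays lay below proliferating arrays throughout, and after RA the KD arrays lay above the control arrays. Ddit3 fell by 26.6% with RA in KD cells (-0.45 ± 0.05; adjusted p = 3.1e-05 in limma) and fell by 36.2% in control cells (-0.65 ± 0.05; adjusted p = 1.64e-06 in limma). After RA, KD cells held 10.5% more than control cells (0.14 ± 0.05; adjusted p = 0.0394 in limma, and 0.0542 without the filter), a difference under the 1.3-fold cutoff. The interaction was 0.20 ± 0.07 and was not called (limma's adjusted p = 0.168).

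**Figure D1:**
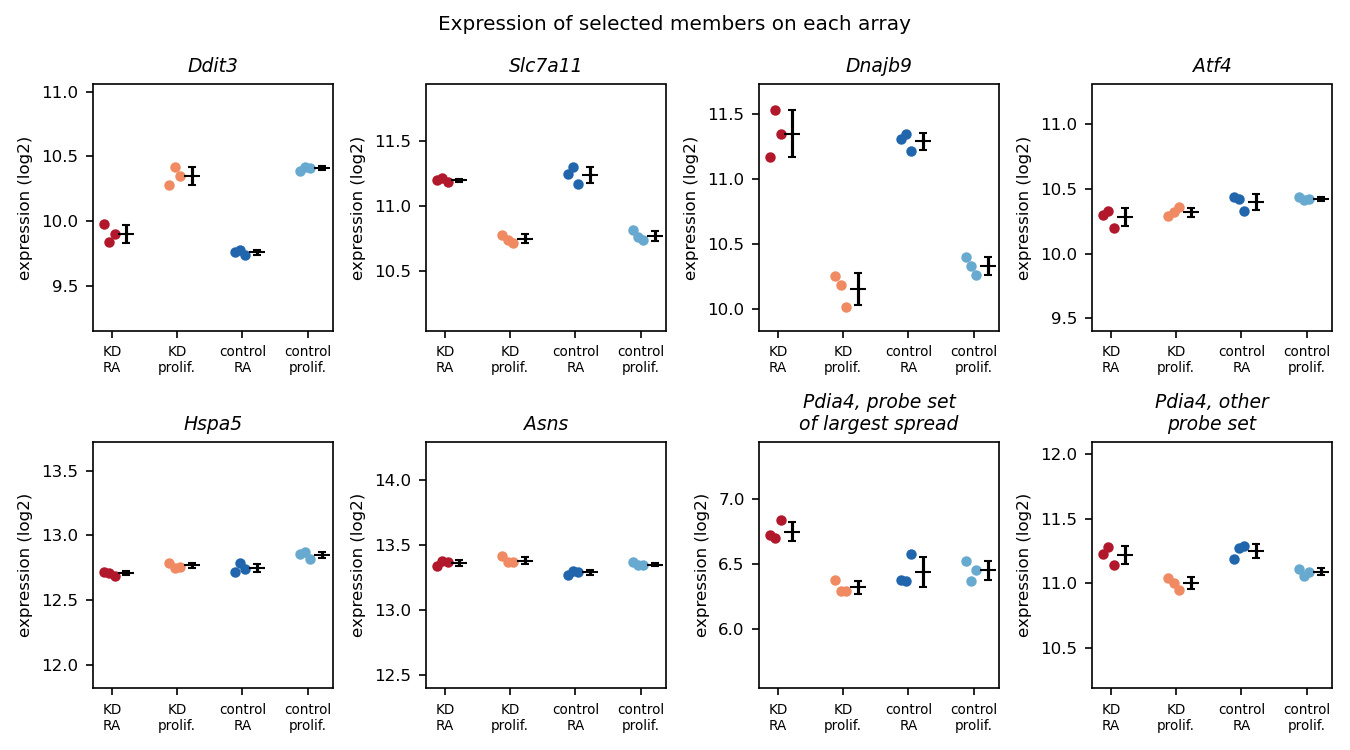
Expression (log2, vertical axis, each panel spanning the same width of 1.9 on its own range) of 7 members on each array, with Pdia4 shown from both of its probe sets; points are single arrays and bars the group mean and SD (n = 3). Dnajb9 and Slc7a11 stood higher and Ddit3 lower on every RA array, while Atf4, Hspa5 and Asns stayed within a range of 0.24, 0.18 and 0.15 over the 12 arrays.

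Pdia4 encodes an ER disulphide isomerase, and its 2 probe sets gave different answers. The probe set of larger spread, a dim one whose signal ranked at percentile 36.6 of probe sets, read 6.72, 6.70 and 6.84 in KD cells after RA and 6.38, 6.29 and 6.29 in proliferating KD cells. In control cells it read 6.38, 6.37 and 6.58 after RA and 6.52, 6.37 and 6.45 in proliferating cells. The 3 KD arrays after RA thus lay above all 9 others. On this probe set Pdia4 rose by 0.43 ± 0.07 with RA in KD cells (adjusted p = 0.000335 in limma), changed by -0.01 ± 0.07 in control cells, and had an interaction of 0.44 ± 0.09 (adjusted p = 0.0395 in limma, and 0.0518 without the filter). Leaving out 1 array at a time kept this interaction between 0.40 and 0.51, but it stayed called in only 2 of 12 such fits. The bright probe set, at percentile 95.7, read 11.23, 11.28 and 11.14 in KD cells after RA, against 11.04, 11.00 and 10.95 in proliferating KD cells. In control cells it read 11.19, 11.27 and 11.29 after RA, against 11.11, 11.06 and 11.09. There every RA array lay above the proliferating arrays in both kinds of cell, by 0.22 in KD cells and 0.16 in control cells, and the interaction was 0.06. On the bright probe set, or with the mean of both (0.33 with RA in KD cells), neither the RA call in KD cells nor the interaction call remained.

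Counted over all members, RA led to 4 calls among the 35, of which 14 were tested, in KD cells (3 rose, 1 fell), where 9.94% of the 9969 genes tested were called (5.37% rose, 4.57% fell). In control cells it led to 3 (2 rose, 1 fell), where 9.34% were called (5.58% rose, 3.76% fell). Without the filter the same counts, 4 and 3 of 35, stood beside 4.97% and 4.65% of 19938 genes. The interaction gave 1 call, Pdia4, where 1.24% of genes were called, and 0 of 35 without the filter, where 0.466% were called. There 7 members had an unadjusted p under 0.05, a threshold at which the share of all genes was not worked out. Arrays of the 2 states did not overlap for 18 members in KD cells (51.4%) and for 21 in control cells (60%), against 34.7% and 33.5% of all genes. The members' median change with RA was -0.045 in KD cells and -0.006 in control cells, and that of all genes -0.015 and 0.003. Both RA comparisons and both KD comparisons draw on the same 4 groups, so their values are not independent of each other.

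Below the fold cutoff, Atf5, Chac1, Trib3 and Sars passed the adjusted p alone in the filtered test in each kind of cell. Of the genes tested, 36.6% passed the adjusted p in KD cells and 33.1% in control cells, genes that reached the fold cutoff included. Without the filter, 7 of the 19 ATF4-type genes passed it in KD cells (2 higher, 5 lower) and 11 in control cells (4 higher, 7 lower), called genes included. Of all genes, 20.9% passed in KD cells (7.85% higher, 13.1% lower) and 17.6% in control cells (8.68% higher, 8.92% lower). Atf5, which encodes an ATF4-related factor, read 8.89, 8.62 and 8.81 in KD cells after RA against 8.52, 8.50 and 8.52 in proliferating KD cells, and 8.81, 8.69 and 8.73 in control cells after RA against 8.45, 8.47 and 8.43. It lay above its proliferating level on each RA array, by 0.27 in KD cells (adjusted p = 0.00569 in limma) and 0.29 in control cells (adjusted p = 0.0036 in limma). Chac1, whose product degrades glutathione, read 11.00, 11.00 and 10.89 in KD cells after RA against 11.19, 11.07 and 11.16 in proliferating KD cells, and 10.87, 10.87 and 10.85 in control cells after RA against 11.08, 11.10 and 11.09. Trib3, a pseudokinase gene that ATF4 and CHOP induce, read 10.17, 10.03 and 10.07 in KD cells after RA against 10.23, 10.31 and 10.29 in proliferating KD cells, and 10.06, 10.01 and 10.08 in control cells after RA against 10.25, 10.25 and 10.22. Both lay lower on every RA array, Chac1 with a change of -0.18 in KD cells and -0.23 in control cells, and Trib3 with -0.19 in each. Sars, the seryl-tRNA synthetase gene, differed by -0.16 in KD cells and -0.17 in control cells.

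The other amino acid genes moved within narrow limits. Slc7a5, the large neutral amino acid transporter, differed with RA by -0.01 in KD cells and -0.15 in control cells, and Slc3a2, the heavy chain that it shares with Slc7a11, by -0.12 and -0.13. Of the tRNA synthetase genes, Gars, for glycine, differed by -0.12 in KD cells and -0.13 in control cells, and Wars, for tryptophan, by 0.11 and 0.14. These 4 genes were outside the filtered test and under the fold cutoff in the fit without it, where their adjusted p in limma lay between 0.0222 and 0.0495 in control cells and was under 0.05 in KD cells for Slc3a2 (0.0417). Mthfd2, a mitochondrial one-carbon gene, lay 0.06 higher in KD cells and 0.15 higher in control cells (adjusted p = 0.0326 in limma without the filter). Among ER folding genes, Pdia6, another isomerase, read 10.94, 10.80 and 10.72 in KD cells after RA against 10.82, 10.85 and 10.80 in proliferating KD cells, and 10.75, 10.56 and 10.72 in control cells after RA against 10.88, 10.90 and 10.84. Its states overlapped in KD cells (-0.01) but not in control cells (-0.20; adjusted p = 0.0446 in limma without the filter). Hsp90b1, the ER form of the HSP90 chaperone, lay 0.16 higher with RA in KD cells (adjusted p = 0.0346 in limma without the filter) and 0.00 in control cells, and the calcium-binding lectin chaperone Calr lay 0.15 and 0.12 higher. Hspa5, which encodes BiP, the central ER chaperone, differed by -0.06 with a 95% interval from -0.14 to 0.03 in KD cells and by -0.10 with an interval from -0.18 to -0.02 in control cells.

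**Figure D2:**
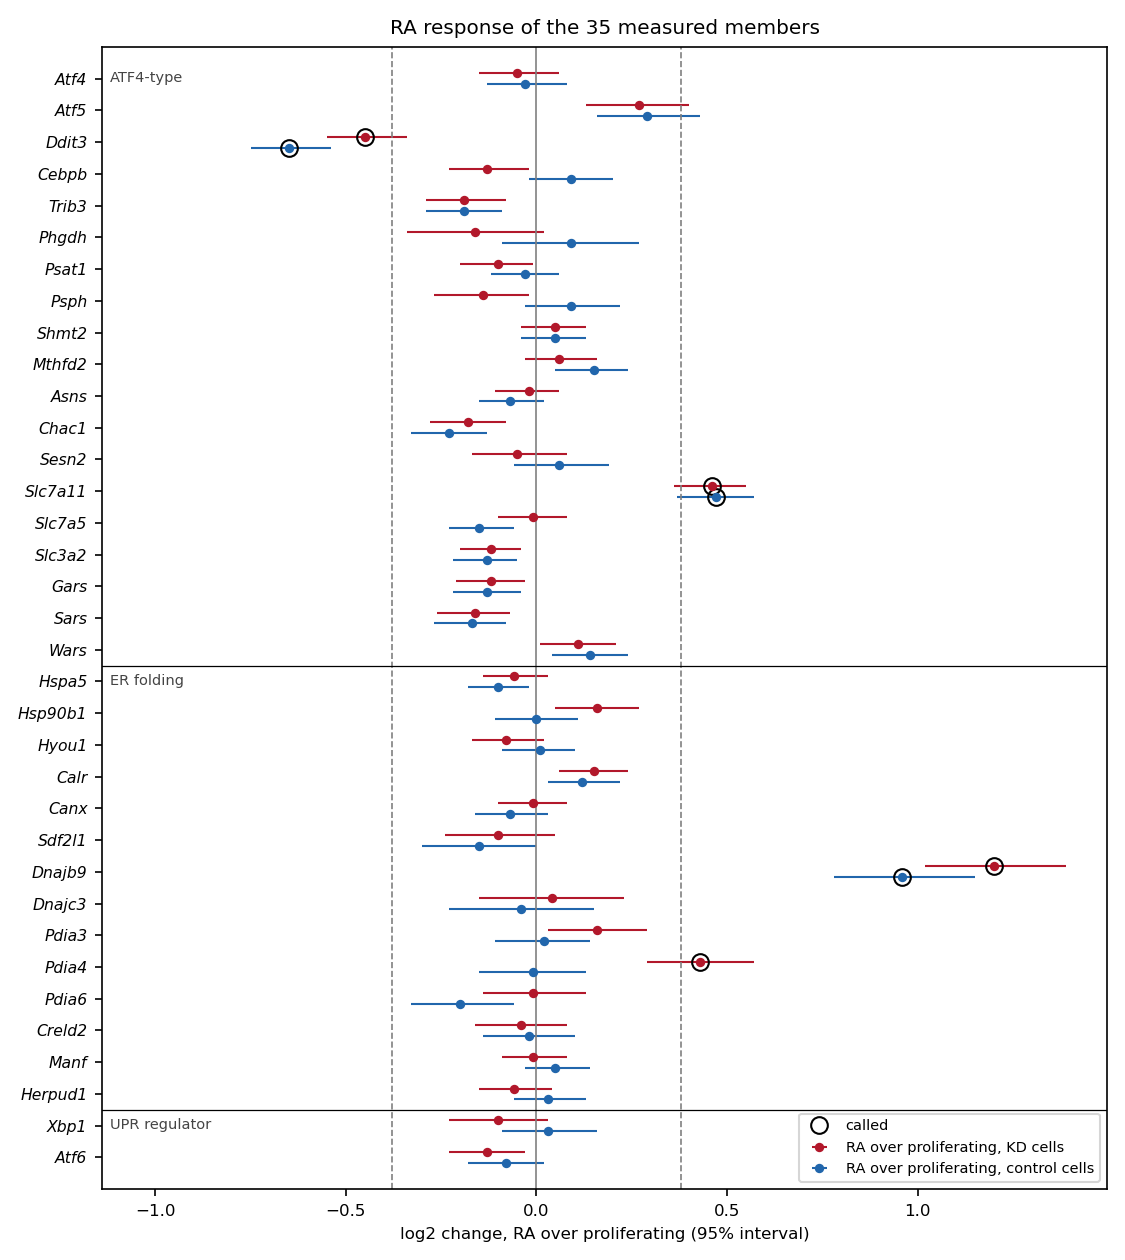
Change with RA (log2, horizontal axis, dots with 95% intervals from the limma fit over all genes) of the 35 measured members in KD cells (red) and control cells (blue), with the 1.3-fold cutoff as dashed lines and calls of the filtered test ringed. Dnajb9, Slc7a11 and Ddit3 were called in both kinds of cell and Pdia4 in KD cells.

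The sequences before the start sites of the 3 genes called in both kinds of cell, and of Hspa5 as the standard ER chaperone target, are shown for the motifs known from the 2 classes. RefSeq promoter windows of 300 bases in the build GRCm38.p6, from 250 bases before the start to 50 after it, were found for 31 of the 36 genes; Slc7a5, Wars, Atf6, Hyou1 and Manf had none. Capitals mark matches on either strand to TGATGNAA, the CCAAT-enhancer-binding protein and ATF response element (CARE) that ATF4 binds, or to the ER stress response element (ERSE), which is CCAAT, 9 bases of any kind and CCACG; no 2 matches in a member overlapped. The 250 upstream bases follow, 5′ to 3′ on each gene's own strand.
Slc7a11, chr3:50443614-50443863, minus strand: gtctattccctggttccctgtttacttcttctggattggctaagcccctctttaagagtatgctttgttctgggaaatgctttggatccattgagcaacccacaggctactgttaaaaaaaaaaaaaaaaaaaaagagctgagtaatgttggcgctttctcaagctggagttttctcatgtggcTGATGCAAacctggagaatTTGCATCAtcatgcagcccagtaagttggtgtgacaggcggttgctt
Ddit3, chr10:127290543-127290792, plus strand: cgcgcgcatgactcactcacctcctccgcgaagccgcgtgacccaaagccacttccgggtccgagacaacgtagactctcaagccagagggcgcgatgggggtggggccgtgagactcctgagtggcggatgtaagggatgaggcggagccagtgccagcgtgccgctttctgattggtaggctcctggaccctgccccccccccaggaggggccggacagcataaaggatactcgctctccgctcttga
Dnajb9, chr12:44210069-44210318, minus strand: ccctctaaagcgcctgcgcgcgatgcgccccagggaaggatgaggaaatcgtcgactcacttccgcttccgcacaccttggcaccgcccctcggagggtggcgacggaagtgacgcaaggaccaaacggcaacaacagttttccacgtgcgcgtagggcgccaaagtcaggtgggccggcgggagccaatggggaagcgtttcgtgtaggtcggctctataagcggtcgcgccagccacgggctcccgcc
Hspa5, chr2:34771840-34772089, plus strand: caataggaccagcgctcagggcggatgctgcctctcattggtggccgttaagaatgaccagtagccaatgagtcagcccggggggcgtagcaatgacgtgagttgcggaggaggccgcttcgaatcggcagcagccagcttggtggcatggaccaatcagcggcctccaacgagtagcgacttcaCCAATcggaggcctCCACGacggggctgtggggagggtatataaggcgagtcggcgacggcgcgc

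The Slc7a11 window held 2 CAREs, 66 and 47 bases before the start, on opposite strands, and the Hspa5 window held an ERSE 65 bases before the start. The Ddit3 and Dnajb9 windows held neither motif, which says only that these letters are not in this window. CARE was found in the windows of 7 of 31 members (Aars, Asns, Chac1, Gars, Herpud1, Slc7a11 and Trib3) and for 4.51% of 27025 RefSeq mouse genes, or 3.97% of their 32851 promoters of the same length. ERSE was found for 7 of 31 (Calr, Canx, Creld2, Dnajc3, Hsp90b1, Hspa5 and Pdia6) and for 0.137% of genes (0.119% of promoters). The related ERSE-II (ATTGG, any base, CCACG) was found for Herpud1 and for 0.0444% of genes (0.0365% of promoters), and the XBP1 element TGACGTGG for 0 of 31 and for 0.714% of genes (0.676% of promoters). The ERSE letters of 3 ER folding genes, printed on the motif's own strand to compare the spacer between the capitals, were as follows.
Hspa5: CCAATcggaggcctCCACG
Canx: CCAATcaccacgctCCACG
Creld2: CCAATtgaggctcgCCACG
The letters in capitals were fixed by the search, so only those in lower case can differ. Canx encodes a membrane-bound lectin chaperone.

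Knockdown asked a different question: whether cells with less Dali carry more or less of these mRNAs. In cells after RA 0 of 35 members were called by limma (14 of them in the filtered test), where 7.71% of the genes tested were called, and in proliferating cells 0 of 35, where 6.96% were called. Without the filter, too, 0 of 35 were called in each state, against 3.87% and 3.47% of 19938 genes. At an unadjusted p under 0.05 there were 12 members after RA and 7 in proliferating cells. The share of all genes at that threshold was not worked out. It is at least the 21.6% (after RA) and 18.6% (proliferating) that passed the adjusted p without the filter. The 95% interval of the difference lay wholly within 1.3-fold for 31 members after RA and for all 35 in proliferating cells, as it did for 84.3% and 86.1% of all genes. Arrays of KD and control cells did not overlap for 13 members after RA (37.1%) and 15 in proliferating cells (42.9%), against 34% and 38.7% of all genes. The median difference of the members was 0.01 after RA and -0.011 in proliferating cells, and that of all genes -0.028 and -0.012.

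Of the 14 members in the filtered test, 6 passed the adjusted p but not the fold cutoff after RA (2 higher, 4 lower in KD cells) and 2 did in proliferating cells (both lower). Of the genes tested, 37.4% passed the adjusted p after RA (17.7% higher, 19.7% lower) and 35% in proliferating cells (15.8% lower). These shares include genes that also reached the fold cutoff, which no member did. Without the filter, 9 of all 35 passed after RA (3 higher, 6 lower) and 3 in proliferating cells (2 higher, 1 lower), against 21.6% of 19938 genes after RA (9.46% higher, 12.1% lower) and 18.6% in proliferating cells (10.7% higher, 7.84% lower). Creld2, which encodes an ER protein of the disulphide isomerase group, passed in both states. It read 10.17, 10.08 and 9.99 in KD cells after RA against 10.39, 10.30 and 10.35 in control cells after RA. In proliferating cells it read 10.12, 10.20 and 10.03 in KD cells against 10.38, 10.35 and 10.37 in control cells. All 6 KD arrays lay below all 6 control arrays, by 17% after RA (-0.27 ± 0.06; adjusted p = 0.00295 in limma) and 16% in proliferating cells (-0.25 ± 0.06; adjusted p = 0.00485 in limma). The 50 genes nearest to Creld2 on chromosome 15 had a median difference of -0.15 after RA and -0.13 in proliferating cells, and after subtraction of that median Creld2 stood at -0.12 in both states. Atf4, on the same chromosome, stood at -0.12 after RA and -0.10 in proliferating cells beside neighbours at -0.22 and -0.15.

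Pdia3, the isomerase that works with the lectin chaperones, read 11.55, 11.50 and 11.44 in proliferating KD cells against 11.78, 11.59 and 11.64 in control cells, with no overlap (-0.18 ± 0.06; adjusted p = 0.0402 in limma, and 0.0574 without the filter). After RA it read 11.67, 11.74 and 11.56 in KD cells against 11.66, 11.69 and 11.70 in control cells, and the groups overlapped (-0.03). Dnajc3, another J-domain partner of BiP, read 9.01, 9.11 and 8.87 in proliferating KD cells against 9.23, 9.16 and 9.11 in control cells, and 9.16, 9.16 and 8.81 in KD cells after RA against 9.13, 9.11 and 9.16. The proliferating groups met at 9.11, the difference of -0.17 came with a 95% interval that reached 0.02, and 1 low KD array after RA widened the spread. Hyou1, a large ER chaperone gene, lay the other way, at 11.20, 11.22 and 11.15 in proliferating KD cells against 11.00, 11.09 and 11.01 in control cells (0.16 ± 0.04; adjusted p = 0.0284 in limma without the filter). After RA it read 11.15, 11.12 and 11.07 in KD cells against 11.07, 11.05 and 11.00 in control cells, a difference of 0.07 with overlap at the edge of the groups. ER folding genes of 1 class thus lay on both sides of 0 in proliferating KD cells, 5 above it and 9 below.

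After RA, the enzymes that make serine from a glycolytic intermediate all read lower in KD cells. Phgdh, the first of the pathway, read 10.27, 10.14 and 9.91 in KD cells after RA against 10.39, 10.37 and 10.36 in control cells after RA (-0.27 ± 0.09; adjusted p = 0.0297 in limma). Psph, the last, read 9.46, 9.38 and 9.37 against 9.64, 9.57 and 9.81 (-0.27 ± 0.06; adjusted p = 0.00552 in limma without the filter). Neither overlapped, and Psat1, the step between them, differed by -0.17 (adjusted p = 0.0138 in limma without the filter), also without overlap. With the mitochondrial one-carbon genes Shmt2 (-0.05) and Mthfd2 (-0.07), 5 of 5 genes of this branch lay below 0 after RA, with a median of -0.167 where that of all genes was -0.028. Phgdh alone was in the filtered test, and none of the 5 reached the fold cutoff. In proliferating cells Phgdh read 10.32, 10.23 and 10.25 in KD cells against 10.29, 10.41 and 10.14 in control cells, and Psph 9.53, 9.56 and 9.56 against 9.61, 9.52 and 9.62. Both pairs of groups overlapped there (-0.02 and -0.03), and the interactions of Phgdh (-0.25) and Psph (-0.24) were not called. Psat1 (-0.09) and Shmt2 (-0.06) did not overlap in proliferating cells, as for 38.7% of all genes, and Mthfd2 (0.02) did. There 4 of the 5 lay below 0, with a median of -0.034 where that of all genes was -0.012.

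Cebpb and Sesn2 showed the same order after RA. Cebpb, a transcription factor gene downstream of ATF4, read 8.13, 8.03 and 8.04 in KD cells after RA against 8.30, 8.27 and 8.30 in control cells after RA (-0.22 ± 0.05; adjusted p = 0.0044 in limma), and 8.13, 8.27 and 8.18 in proliferating KD cells against 8.24, 8.20 and 8.16 in control cells. Sesn2, whose product senses leucine, read 9.59, 9.47 and 9.44 in KD cells after RA against 9.70, 9.82 and 9.65 in control cells after RA (-0.23 ± 0.06; adjusted p = 0.00914 in limma), and 9.53, 9.53 and 9.57 in proliferating KD cells against 9.60, 9.72 and 9.66 in control cells. After RA neither gene overlapped between KD and control cells, and in proliferating cells Cebpb did while Sesn2 did not. The interaction of Cebpb was -0.22 and was not called (limma's adjusted p = 0.141). Higher in KD cells were Gars, at 12, 11.98 and 12.04 after RA against 11.91, 11.87 and 11.85, and at 12.08, 12.13 and 12.17 in proliferating KD cells against 11.99, 12.02 and 12 in control cells. Its difference was 0.13 in each state (adjusted p = 0.0355 after RA and 0.0487 in proliferating cells, in limma without the filter). Hsp90b1 lay 0.20 higher in KD cells after RA (adjusted p = 0.0126 in limma without the filter), at 12.37, 12.32 and 12.21 against 12.06, 12.13 and 12.11, and Pdia4, on its dim probe set only, 0.31 higher (adjusted p = 0.00327 in limma).

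**Figure D3:**
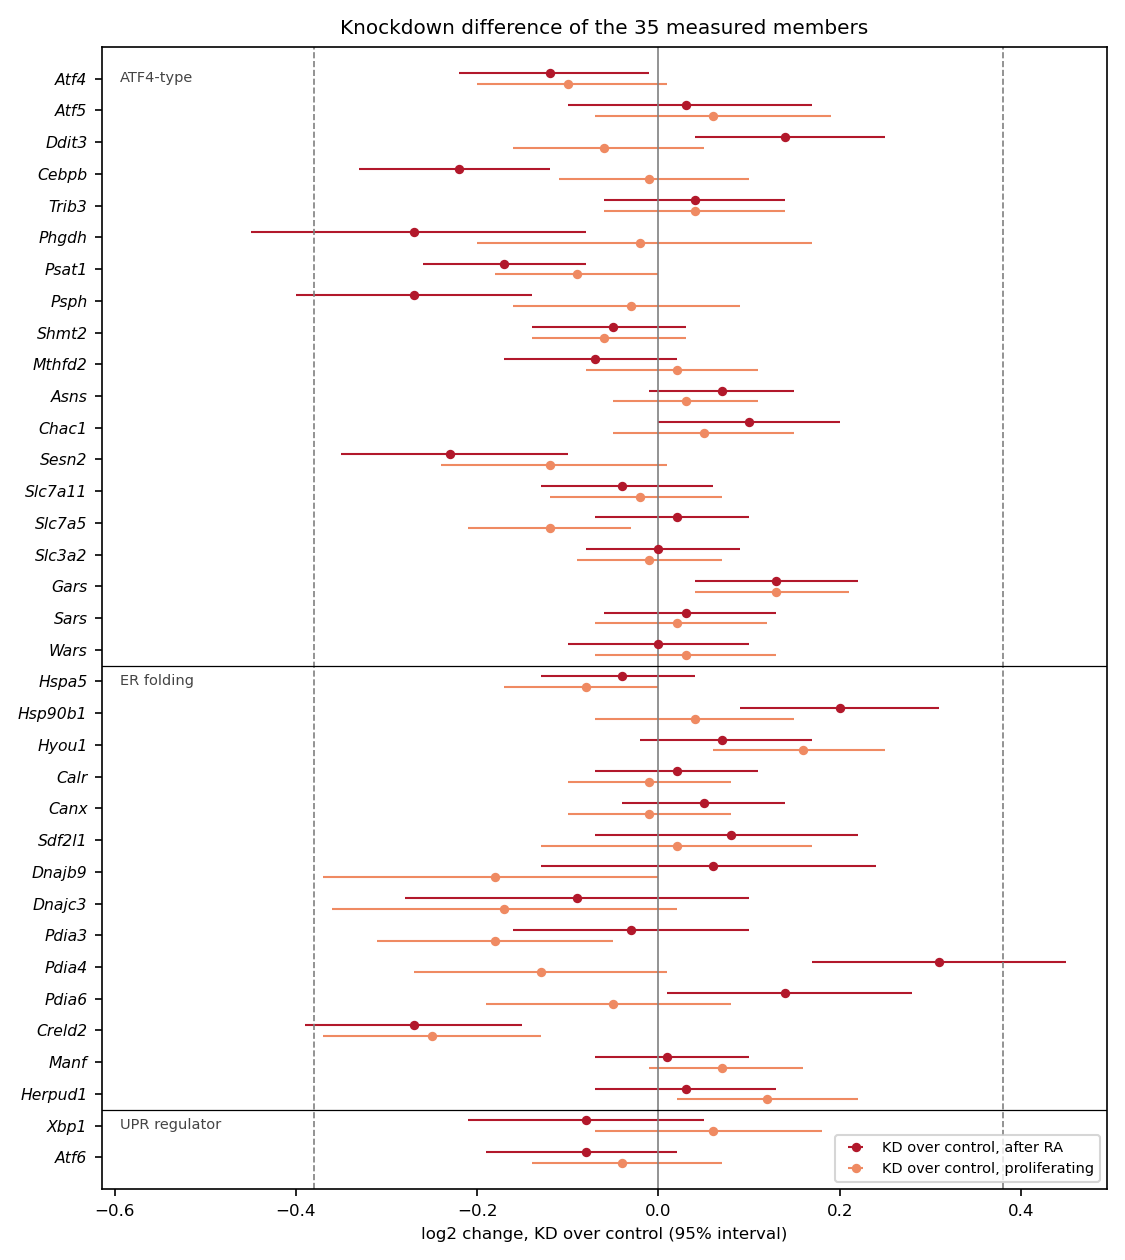
Difference between KD and control cells (log2, horizontal axis, dots with 95% intervals from the limma fit over all genes) of the 35 measured members after RA (red) and in proliferating cells (orange), with the 1.3-fold cutoff as dashed lines. No member was called, and 31 intervals after RA and 35 in proliferating cells lay inside the dashed lines.

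The ATF4-type genes were then set beside the ER folding genes as classes, as a description without a test. With RA the 19 ATF4-type genes had a median change of -0.104 in KD cells and -0.027 in control cells, and the 14 ER folding genes -0.006 and -0.002. In KD cells 14 of 19 ATF4-type genes and 8 of 14 ER folding genes lay below 0, and in control cells 10 of 19 and 7 of 14. The ATF4-type median minus the ER median was -0.098 in KD cells and -0.025 in control cells. Between KD and control cells it was -0.042 after RA and 0.019 in proliferating cells.

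Each array was also set against the mean of the proliferating control arrays. The ATF4-type median minus the ER median was -0.13, -0.154 and -0.141 on the KD arrays after RA and 0.032, -0.001 and 0.051 on the proliferating KD arrays. It was 0.039, 0.017 and -0.006 on the control arrays after RA and -0.007, 0.002 and 0.021 on the proliferating control arrays, which lie near 0 by construction. Set against this baseline, the 3 KD arrays after RA lay below the 9 others, with ATF4-type medians of -0.066, -0.114 and -0.16 and ER medians of 0.065, 0.04 and -0.019. The median of all genes on these 3 arrays was -0.047, -0.039 and 0.007. For each gene on these arrays the baseline adds the differences of knockdown and RA together. A median over genes does not add or subtract as the genes do, so these array values do not subtract to the class differences above. Within a group the SD of these array values was 0.02, which is not a spread of those class differences. Taken from the change of each gene, the direct difference between KD and control cells after RA was the -0.042 given above.

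**Figure D4:**
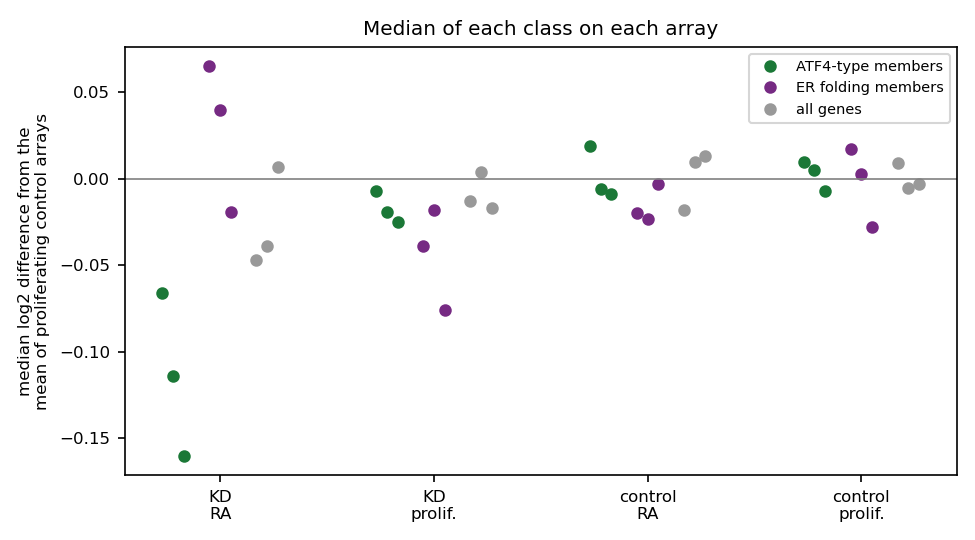
Median log2 difference from the mean of the proliferating control arrays (vertical axis) of the 19 ATF4-type genes, the 14 ER folding genes and all 19938 genes, with 1 point per array and 3 arrays per group. On the 3 KD arrays after RA the ATF4-type medians (-0.066, -0.114 and -0.16) lay below the ER medians (0.065, 0.04 and -0.019).

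Other genes of the same pathways were taken from lists of their own. None of 13 sensors and switches of eIF2 and of the unfolded protein response, such as the kinases PERK and GCN2, was called by limma in any of the 5 comparisons. Of these, 10 were in the filtered test. None of 13 further tRNA synthetase genes was called either, and 4 of them were in the filtered test. Without the filter neither list gave a call. The share called of all genes tested ran from 1.24% for the interaction to 9.94% with RA in KD cells. At an unadjusted p under 0.05 there were 2 to 9 of the sensors and 3 to 10 of the synthetases, depending on the comparison. The share of all genes at that threshold was not worked out. Without the filter, 7 synthetases passed the adjusted p lower with RA in KD cells and 1 higher, against 13.1% and 7.85% of all genes. Arrays of KD and control cells did not overlap for 84.6% of the synthetases after RA and 61.5% in proliferating cells, against 34% and 38.7% of all genes. Of 23 further ATF4 targets, 13 of them in the filtered test, 1 rose and 3 fell with RA in KD cells, 1 rose and 1 fell with RA in control cells, 2 fell in KD cells after RA relative to control cells and 1 rose in proliferating KD cells. Of all genes tested, 9.94%, 9.34%, 7.71% and 6.96% were called in these 4 comparisons. Ddit4, an inhibitor of mTORC1, fell with RA by 0.52 in KD cells and 0.41 in control cells, and Shmt1, the cytosolic serine hydroxymethyltransferase gene, rose by 0.43 and 0.41. Atf3, a stress-induced factor gene, fell by 0.51 with RA in KD cells (adjusted p = 4.08e-05 in limma), and after RA it was 0.62 lower in KD than in control cells (-0.62 ± 0.06; adjusted p = 2.29e-05 in limma). Map1lc3b, the autophagy gene, was lower in KD cells after RA too (-0.41 ± 0.05). Nupr1, a stress-induced nuclear protein gene, was higher in proliferating KD cells (0.43 ± 0.07) and fell by 0.47 with RA in KD cells.

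Of 10 further amino acid transporter genes, 5 of them in the filtered test, Slc38a1, a glutamine carrier, rose with RA by 0.80 ± 0.13 in KD cells and 0.50 ± 0.13 in control cells, and no other was called. With RA, 9.94% and 9.34% of the genes tested were called. Arrays of KD and control cells did not overlap for 30% of the transporters after RA and 90% while proliferating, against 34% and 38.7% of all genes. With RA it was 90% in KD cells and 70% in control cells, against 34.7% and 33.5%. Of 30 further genes of ER folding and ER-associated degradation, 14 of them in the filtered test, 1 rose and 1 fell with RA in KD cells and 2 fell with RA in control cells, against the same 9.94% and 9.34% of genes tested. Sil1, an exchange factor of BiP, fell by 0.44 in each, Ero1a, the oxidase that recharges disulphide isomerases, fell by 0.44 in control cells, and Fkbp14, a prolyl isomerase gene, rose by 0.48 in KD cells. Derl1, a gene of the degradation channel, was the only one of the 30 called between KD and control cells, lower in KD cells after RA (-0.39 ± 0.05) and while proliferating (-0.42 ± 0.05). Of all genes tested, 7.71% and 6.96% were called in these 2 comparisons. Neighbouring genes were subtracted for the members only, so Derl1 was not set against its neighbours. The interaction gave 0 calls in each of these lists.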

How the data were processed

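Total RNA of 12 N2A samples in 4 groups of 3 was hybridised to gene arrays. The authors deposited log2 expression for each probe set, after RMA with background correction, quantile normalisation and gene-level summaries, and no tool version was found in the sources read. Quantile normalisation brings arrays towards a common distribution, although the deposited medians still differ slightly, so a shift of all mRNAs together would be largely hidden. Precision is limited by the number of arrays.

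The platform annotation gave 1 gene symbol to 21789 of 35556 probe sets, several to 1621 and none to 12146; 19855 of the 19938 genes matched RefSeq (GRCm38.p6) by identifier and no symbol changed. Dnajc3 had a pair of probe sets with identical values, used once. The upper 50% of genes by interquartile range (9969) entered limma 3.58.1 in R 4.3.3 (lmFit, contrasts and eBayes over 4 group means, two-sided, without a block), with Benjamini-Hochberg adjustment over these genes. Intervals come from the same model over all 19938 genes. Standard errors come from the filtered fit for genes in it, and from the model over all genes for the others. Scripts were tested on simulated data.

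Members and lists were chosen with earlier results of these data known, so no test was made over a list. Values on every array are printed for called members and for the 6 members of largest change in each comparison, and of the other lists the called genes, up to 4 per comparison. Hsp90b1, and Gars in both states, were given outside this rule, after their values had been seen. Alternatives were the filter, fold cutoff, probe set rule, scaling, array weights, a replicate block, pairs of groups alone, removal of each array and subtraction of the median of the 25 genes on each side; that Pdia4 was read from its other probe set was chosen after seeing the data.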

Additional observations from a re-analysis of the deposited data

Results flagged for a closer look

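The RA response of Pdia4 differed between KD and control cells by the interaction test, with a log2 difference of 0.44 (adjusted p = 0.0395 in limma). This came from the dim probe set, whose group means were 6.75 ± 0.074 in KD cells after RA, 6.32 ± 0.049 in proliferating KD cells, 6.44 ± 0.117 in control cells after RA and 6.45 ± 0.075 in proliferating control cells (log2, SD, n = 3). The bright probe set of the same gene had means of 11.22 ± 0.07 in KD cells after RA, 11.00 ± 0.046 in proliferating KD cells, 11.25 ± 0.056 in control cells after RA and 11.09 ± 0.028 in proliferating control cells, and its interaction was 0.06. Why the probe sets differ was not tested.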

How the results depend on the processing

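The calls of Dnajb9 with RA held under all 22 alternatives in both kinds of cell, and those of Slc7a11 and Ddit3 under all but the 1.5-fold cutoff, which Ddit3 passed in control cells. With no fold cutoff the member calls became 6 (KD over control after RA), 2 (KD over control, proliferating), 8 (RA in KD cells) and 7 (RA in control cells). A 1.5-fold cutoff left 1 call with RA in KD cells and 0 for the interaction, which also gave 0 with the mean of probe sets and with no filter. Leaving out 1 array at a time gave 0 and 0 calls between KD and control cells, 4 with RA in KD cells, 3 with RA in control cells and 0 to 1 for the interaction, where Pdia4 stayed called only without KD array 1 or control array 3 after RA. With the mean of its probe sets Pdia4 changed by 0.33 with RA in KD cells and had an interaction of 0.25 (adjusted p = 0.0993 in limma).

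The ATF4-type minus ER difference between KD and control cells was -0.064 after RA and -0.008 in proliferating cells once quantile normalisation was repeated; the cause was not tested. Without 1 array at a time it ranged from -0.072 to -0.028 between KD and control cells after RA, 0.015 to 0.038 in proliferating cells, -0.104 to -0.081 with RA in KD cells, -0.028 to 0.02 with RA in control cells and -0.11 to -0.031 for the interaction. Subtracting neighbouring genes moved 19 of 70 member differences between KD and control cells, where no member was called to begin with. Centring arrays on their medians in place of the deposited scale gave 277 higher and 539 lower genes in KD cells after RA, against 370 and 399, and 39 and 119 for the interaction, against 49 and 75. Whether the replicate numbers pair the samples was not settled by correlations between arrays after removal of group means. Those of the same number ran from -0.0878 to 0.215 over 18 pairs, and those of other numbers from -0.2332 to 0.1382. With the replicate numbers as a block the member calls were 0, 0, 4, 3 and 1, as without it.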
